A study of Homo sapiens with 12 samples.

Results

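The 10 integrin subunits described here are the alpha subunits ITGA2, ITGA3, ITGA5, ITGA6 and ITGAV and the beta subunits ITGB1, ITGB3, ITGB4, ITGB5 and ITGB6. They were chosen by symbol among the 29035 genes of the count table, with earlier results of these data known. All 10 were found and passed the filter on low counts. A549 cells, an established epithelial line from a human lung carcinoma, were grown with TGFβ at 4 ng/mL. They were taken after 0, 0.5, 12, 24, 48 or 96 h, where 0 h is the start of exposure and serves as the control. No later time had a library without TGFβ, so exposure and time in culture cannot be told apart. Single cells negative for propidium iodide were sorted into 384 wells per library and processed by CEL-Seq2, which counts each captured poly(A) RNA molecule once by its unique molecular identifier (UMI). Each time point had 2 libraries, but whether these are separate cultures is not in the labels, so a p-value here covers just the spread among libraries, which may be technical.

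Integrins are receptors in the cell membrane that pair an alpha with a beta subunit and connect the extracellular matrix to the actin cytoskeleton. ITGB1 is the common partner of many alpha subunits, forming the fibronectin receptor with ITGA5, laminin receptors with ITGA3 and ITGA6 and a collagen receptor with ITGA2. ITGAV pairs with ITGB3, ITGB5 or ITGB6 to bind ligands with the Arg-Gly-Asp (RGD) motif such as vitronectin, and ITGAV with ITGB6 also releases active TGFβ from its latent form. ITGA6 with ITGB4 holds epithelial cells to laminin in hemidesmosomes.

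Wells with 100 to 40000 UMIs, with 2000 to 7000 genes detected and with a mitochondrial share of 35% or less were kept, which left 1871 cells, 131 to 217 per library from 0 h to 48 h and 54 and 64 at 96 h. Summed protein-coding UMIs ranged from 1264044 to 4500036 per library, so the 96 h values rest on the fewest molecules. The median kept cell held 14137 to 28045 UMIs, fewest in 48 h replicate 2. Libraries with the same replicate number shared all 384 cell barcodes, and libraries with different numbers shared 0. Of the 5 epithelial markers (KRT8, KRT18, KRT19, EPCAM, CDH1) all were detected at every time, with a summed level of 2106 to 3194 CPM (counts scaled to a common library total) at 0 h and 1043 to 1106 CPM at 96 h. The 5 fibroblast markers summed to 0.274 to 7.001 CPM over all libraries, the 2 measured endothelial markers to at most 1 UMI, and the pan-leukocyte gene PTPRC had 0 UMIs in 1684 cells thinned to one depth, which allows up to 0.178% of such cells to hold a UMI and sets no limit on cells that express it. The immune list also holds CD14, and it summed to 7.12 to 9.27 CPM at 0 h and at most 1.58 CPM from 12 h on. The part of the lower epithelial marker level in the changes below was not tested.

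Gene positions are from GENCODE 44 on GRCh38, the build the labels name. The alpha genes lie at chr5:52989340-53094779 (ITGA2, + strand, 30 exons), chr17:50055968-50090481 (ITGA3, + strand, 26 exons), chr12:54395261-54419266 (ITGA5, − strand, 30 exons), chr2:172427354-172506459 (ITGA6, + strand, 26 exons) and chr2:186590010-186680901 (ITGAV, + strand, 30 exons). The beta genes lie at chr10:32887273-33005792 (ITGB1, − strand, 16 exons), chr17:47253827-47313743 (ITGB3, + strand, 15 exons), chr17:75721328-75757818 (ITGB4, + strand, 40 exons), chr3:124761948-124901418 (ITGB5, − strand, 15 exons) and chr2:160099667-160200313 (ITGB6, − strand, 15 exons). Exons are those of the canonical transcript. The last exon, where CEL-Seq2 reads start, lies under an antisense gene for ITGA5 (GPR84-AS1), ITGA6 (PDK1-AS1), ITGAV (an unnamed gene) and ITGB4 (GALK1), and for ITGB3 under both an antisense gene (EFCAB13-DT) and an unnamed gene of the same strand. No source used here states whether counting used strand, so reads of such overlaps cannot be told apart. GALK1 itself stayed between 13.4 and 22.6 CPM in the 12 libraries and passed in none of the 8 comparisons, with its largest change at 0.30 ± 0.24 on the log2 scale (24 h vs 12 h, edgeR adjusted p = 0.96).

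Promoters are shown for members that rose by 12 h (ITGA5, ITGAV, ITGA2, ITGB6) and for ITGB5, which fell. Each runs 5′ to 3′ on the gene's strand, from 250 bases before the RefSeq start (GRCh38.p14) to 30 bases after it, and where a gene had several windows the one at the start of its canonical transcript was taken. They lie at chr12:54419237-54419516 (ITGA5), chr2:186589806-186590085 (ITGAV), chr5:52989102-52989381 (ITGA2), chr2:160200243-160200522 (ITGB6) and chr3:124887336-124887615 (ITGB5). Capitals mark the AP-1 letters TGANTCA and the SMAD box CAGAC, each searched on both strands.
ITGA5: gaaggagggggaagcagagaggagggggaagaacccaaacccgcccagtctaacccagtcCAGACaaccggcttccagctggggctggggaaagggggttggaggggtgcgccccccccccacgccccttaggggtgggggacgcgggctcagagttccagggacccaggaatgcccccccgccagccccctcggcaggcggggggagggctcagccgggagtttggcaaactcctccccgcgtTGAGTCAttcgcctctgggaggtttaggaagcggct
ITGAV: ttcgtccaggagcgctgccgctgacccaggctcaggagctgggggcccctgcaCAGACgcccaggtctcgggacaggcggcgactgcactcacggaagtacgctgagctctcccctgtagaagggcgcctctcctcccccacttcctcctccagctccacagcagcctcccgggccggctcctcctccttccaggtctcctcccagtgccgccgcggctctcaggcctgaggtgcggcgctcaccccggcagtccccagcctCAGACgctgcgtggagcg
ITGA2: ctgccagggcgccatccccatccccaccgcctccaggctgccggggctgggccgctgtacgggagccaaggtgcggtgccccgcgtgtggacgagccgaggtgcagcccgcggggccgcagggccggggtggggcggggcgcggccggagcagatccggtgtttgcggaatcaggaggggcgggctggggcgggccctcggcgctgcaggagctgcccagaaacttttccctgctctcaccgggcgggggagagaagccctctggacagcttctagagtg
ITGB6: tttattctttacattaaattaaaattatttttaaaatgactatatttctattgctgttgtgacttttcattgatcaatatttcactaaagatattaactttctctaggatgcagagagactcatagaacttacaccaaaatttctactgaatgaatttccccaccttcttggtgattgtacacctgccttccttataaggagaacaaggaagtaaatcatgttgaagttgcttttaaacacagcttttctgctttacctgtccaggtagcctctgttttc
ITGB5: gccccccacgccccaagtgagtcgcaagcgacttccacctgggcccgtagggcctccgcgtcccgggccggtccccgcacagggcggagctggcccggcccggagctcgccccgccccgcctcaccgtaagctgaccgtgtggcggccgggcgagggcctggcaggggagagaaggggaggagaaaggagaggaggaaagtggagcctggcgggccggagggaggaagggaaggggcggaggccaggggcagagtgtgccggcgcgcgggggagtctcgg
RefSeq windows were found for 7 of the 10 members, these 5 together with ITGA6 and ITGB1, and not for ITGA3, ITGB3 and ITGB4. The AP-1 letters occurred in 1 of the 7, ITGA5, where they begin 6 bases before the start, and in 7.35% of all 35116 windows. The SMAD box occurred in ITGA5 (190 bases before the start), in ITGAV (197 before and 12 after) and in ITGB1 (133 before), against 42.7% of all windows. The longer SMAD palindrome GTCTAGAC was in 0 of the 7 and in 0.191% of all windows, and no motif letters overlapped another. The windows of ITGA2, ITGA6, ITGB5 and ITGB6 held none of these letters. By base composition ITGB6 stood apart, with 32.1% G or C against 68.6% to 78.6% in the other 6 and a median of 58.2% over all windows. These matches are descriptions of letters and not of binding.

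Members were compared between times on library sums with edgeR's quasi-likelihood test, fitted over 10465 protein-coding genes and all 12 libraries, with 0.05 as the limit for the p-value after Benjamini-Hochberg adjustment (called the edgeR adjusted p here). Changes are log2 ratios with their standard error, from 2 libraries against 2, and levels are CPM of UMIs with TMM scaling. A UMI counts a molecule whatever its length, so levels were not divided by gene length. The comparisons with 0 h share the 0 h libraries and are not independent. Over the whole course all 10 members varied with time, as did 28.2% of tested genes. The edgeR adjusted p of this test was highest for ITGA6 (0.0327) and ITGA3 (0.0312), and each missed the threshold in 6 of the 12 fits without one library, up to 0.0904 for ITGA6 without 48 h replicate 2 and 0.195 for ITGA3 without 96 h replicate 1. ITGB1 missed it without 0 h replicate 1 and without 96 h replicate 2, at up to 0.0640, and the other 7 members passed in all 12.

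At 0.5 h, 0 of the 10 members had changed from 0 h, while 0.392% of tested genes had risen and 0.0478% had fallen. At an unadjusted p under 0.05 in edgeR the count was also 0, and DESeq2 called 0. The median log2 change of the 10 members was 0.10, beside −0.00 over all tested genes. At 12 h 6 members had risen (8.46% of tested genes) and 0 had fallen (5.83%). At 24 h 5 had risen (7.62%) and 1 had fallen (5.56%), and at 48 h 5 had risen (10%) and 3 had fallen (8.48%). At 96 h 7 had risen (12.5%) and 2 had fallen (11.1%). The members were chosen with earlier results of these data known. These counts, and that over the whole course, are thus descriptions beside the shares of all genes. The risen members include ITGB6 from 12 h on and ITGB3 at 12 h, 48 h and 96 h. Both genes passed the filter on low counts through libraries where they are high. The median log2 change of the members was 1.25 (12 h), 1.47 (24 h), 0.48 (48 h) and 1.02 (96 h), and it lay within 0.03 of 0 over all tested genes at each of these times. With genes near 0 counts set to their count ratio or to their fold over a floor, as given for ITGB3 and ITGB6 below, only the 24 h median moved, to 1.26.

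**Figure D1:**
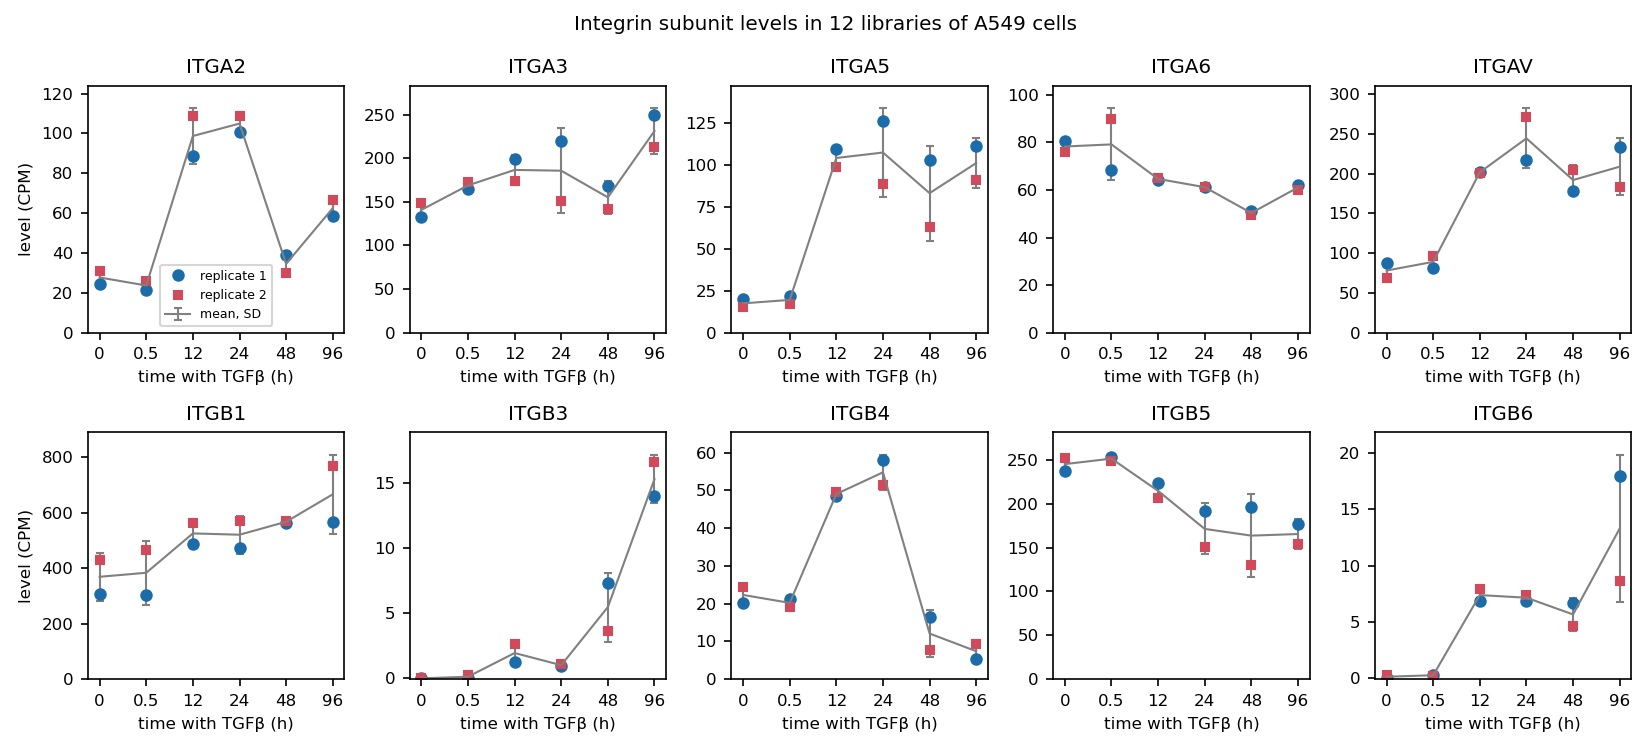
Levels in CPM (vertical axes, from 0) of the 10 integrin subunits at 6 times with TGFβ (horizontal axes, not to scale), with replicate 1 as circles, replicate 2 as squares and gray lines for the mean and SD of 2 libraries. ITGA5 rose from a mean of 17.4 CPM (0 h) to 104 CPM (12 h), while ITGB4 reached 54.8 CPM (24 h) and 7.38 CPM (96 h).

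Among the receptors for fibronectin and other RGD ligands, ITGA5, the alpha chain of the fibronectin receptor, rose at 12 h and was above 0 h at every later time. Given as replicate 1 and replicate 2, its level was 19.7 and 15.1 CPM (0 h), 21.6 and 17.3 (0.5 h), 109 and 98.8 (12 h), 126 and 88.6 (24 h), 103 and 62.9 (48 h), and 111 and 90.5 (96 h). The order of mean levels was 0 h, 0.5 h, 48 h, 96 h, 12 h, 24 h. The 8 libraries from 12 h on all lay above the 4 earlier ones, and the libraries of the 4 late times overlapped one another. The log2 change from 0 h was 2.57 ± 0.24 for 12 h (edgeR adjusted p = 4.9e-08), 2.63 ± 0.24 for 24 h (3.8e-08), 2.27 ± 0.25 for 48 h (3.3e-07) and 2.53 ± 0.25 for 96 h (8.1e-08). These were the largest changes among members with more than 3 UMIs in each group, and ITGA5 passed at all 4 times in each of the 12 fits without one library.

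ITGAV, the alpha chain shared by the vitronectin receptors, rose at the same 4 times. It measured 87.1 and 69.2 CPM (0 h), 81.4 and 96.8 (0.5 h), 203 and 201 (12 h), 218 and 271 (24 h), 179 and 205 (48 h), and 234 and 184 (96 h). Again every library from 12 h on exceeded every earlier one. The log2 change from 0 h was 1.37 ± 0.17 for 12 h (edgeR adjusted p = 2.2e-06), 1.64 ± 0.17 for 24 h (1.4e-07), 1.29 ± 0.17 for 48 h (3.7e-06) and 1.41 ± 0.18 for 96 h (1.2e-06), and it passed at these times without any one library.

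The beta subunits ITGB3, ITGB5 and ITGB6, named above as partners of ITGAV, went different ways. ITGB3, the beta chain of the vitronectin receptor also found on platelets, had 0 and 0 UMIs (0 h), 0 and 1 (0.5 h), 5 and 10 (12 h), 4 and 3 (24 h), 22 and 7 (48 h), and 18 and 25 (96 h). In order of level ITGB3 ran 0 h, 0.5 h, 24 h, 12 h, 48 h, 96 h, and only 0 h and 0.5 h overlapped as neighbors. In CPM the 2 libraries stood at 1.27 and 2.63 at 12 h and at 14.0 and 16.6 at 96 h, with no overlap between these times. Set against a floor of 3 UMIs over both 0 h libraries, its share of UMIs was 4.70-fold (12 h), 13.8-fold (48 h) and 37.2-fold (96 h). The later counts enter these folds without their counting error, so the folds are not lower limits of an interval. The edgeR adjusted p against 0 h was 0.0060 (12 h), 5.5e-05 (48 h) and 5.4e-07 (96 h), while 24 h, 2.32-fold by the same floor, missed the threshold (0.052). ITGB3 passed the filter on low counts through the later libraries where it is high, and in a fit of the 12 h and 0 h libraries alone it was not tested. The p-values of ITGB3 against 0 h are thus no independent support for its rise. The 12 h call was also lost with cells thinned to equal depth (0.15), and without 0 h replicate 1 (0.0610), 0 h replicate 2 (0.0526) or 12 h replicate 2 (0.0578).

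ITGB6, the epithelial partner of ITGAV that binds latent TGFβ, had 0 and 1 UMIs (0 h), 1 and 1 (0.5 h), 27 and 30 (12 h), 30 and 20 (24 h), 20 and 9 (48 h), and 23 and 13 (96 h). All 8 libraries from 12 h on lay above the 4 earlier ones, with 4.64 to 17.9 CPM against at most 0.300 CPM. The ratio of UMI shares to 0 h, where 1 UMI was counted, was 53.6 at 12 h, with an exact 95% interval of 9.24 to 2154 for counting error only. It was 49.7 at 24 h (interval 8.52 to 2001), 41.3 at 48 h (6.85 to 1686) and 93.5 by 96 h (15.7 to 3795). The edgeR adjusted p was 1.2e-05, 1.6e-05, 5.9e-05 and 8.2e-07 at these times. Without any one library its fitted change stayed positive at each of them. ITGB6, like ITGB3, passed the filter on low counts through the libraries from 12 h on, where it is high. Its p-values are thus no independent support for the rise.

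ITGB5, a further partner of ITGAV in vitronectin binding, measured 238 and 253 CPM (0 h), 254 and 249 (0.5 h), 223 and 206 (12 h), 192 and 151 (24 h), 197 and 130 (48 h), and 177 and 154 (96 h). Every library from 12 h on was below all 4 earlier ones. The log2 change from 0 h was −0.19 ± 0.17 for 12 h (edgeR adjusted p = 0.52), −0.51 ± 0.17 for 24 h (0.046), −0.57 ± 0.17 for 48 h (0.020) and −0.57 ± 0.18 for 96 h (0.020). Each of these 3 calls was lost without some single libraries. The 24 h call was lost in 9 of the 12 fits without one library (up to 0.417 without 24 h replicate 2), the 48 h call without either 0 h library or without 48 h replicate 2 (up to 0.326, log2 change −0.32) and the 96 h call without any one of the 0 h and 96 h libraries (up to 0.195).

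ITGB1, the common beta chain, measured 308 and 429 CPM (0 h), 301 and 465 (0.5 h), 488 and 562 (12 h), 472 and 568 (24 h), 564 and 570 (48 h), and 566 and 766 (96 h). Replicate 2 lay above replicate 1 at all 6 times, and the replicate number is also the barcode set, so the 2 cannot be told apart. The log2 change from 0 h was 0.51 ± 0.20 for 12 h (edgeR adjusted p = 0.11), 0.50 ± 0.20 for 24 h (0.12), 0.62 ± 0.20 for 48 h (0.038) and 0.85 ± 0.20 for 96 h (0.0044). Without 0 h replicate 1 the 48 h and 96 h calls were lost (0.345 and 0.0874), as they were without 48 h replicate 1 (0.0890) or replicate 2 (0.106) at 48 h and without 96 h replicate 2 (0.107) at 96 h. With the replicate number as a block ITGB1 also passed at 12 h (edgeR adjusted p = 0.0061) and at 24 h (0.0085). With stricter limits on cells the 48 h call was lost (0.32) and 24 h did not pass (0.065). Under these limits 12 h passed (log2 change 0.83, edgeR adjusted p = 0.043) and the 96 h call held (0.0038).

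**Figure D2:**
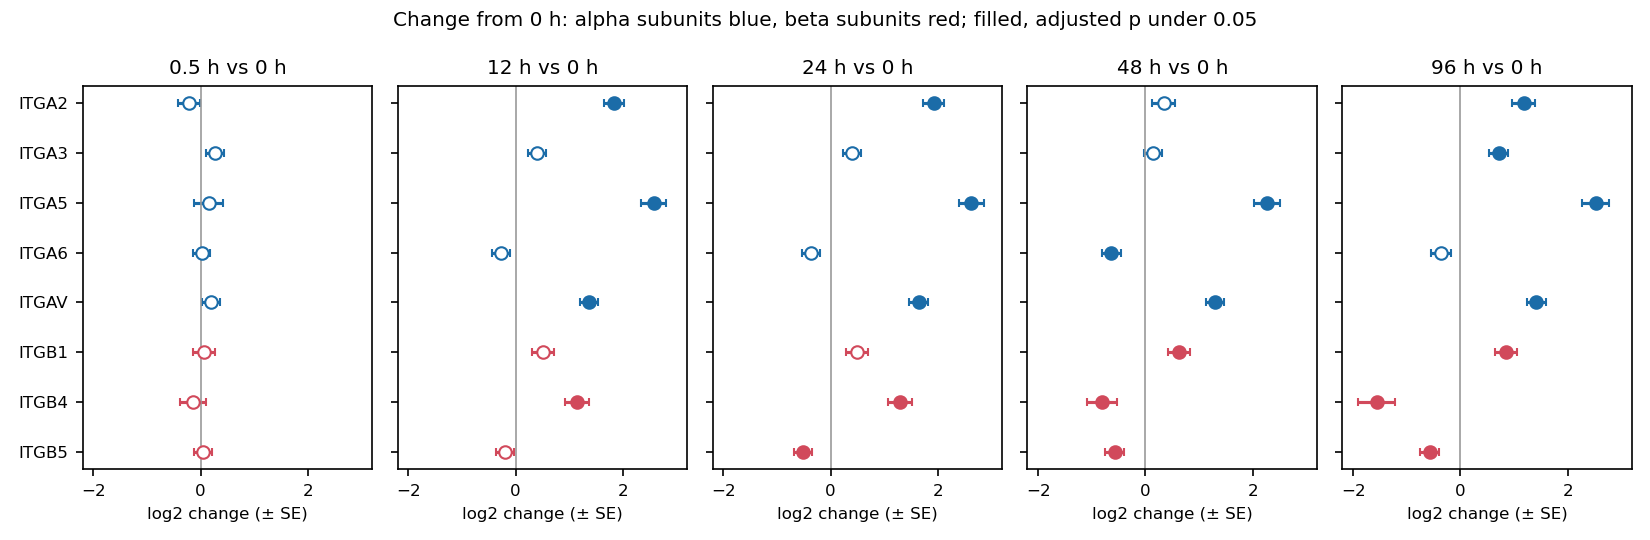
Log2 change from 0 h with its SE (horizontal axes) for the 8 members with more than 3 UMIs in each group, by time, alpha subunits in blue and beta subunits in red. Filled symbols passed (edgeR adjusted p under 0.05). ITGA5 lies farthest right at each time from 12 h on, and ITGB4 lies at 1.30 at 24 h and at −1.56 at 96 h.

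Of the subunits of laminin receptors, ITGB4 rose and later fell. ITGB4, the hemidesmosome beta chain, measured 20.3 and 24.3 CPM (0 h), 21.3 and 19.0 (0.5 h), 48.4 and 49.6 (12 h), 58.0 and 51.5 (24 h), 16.4 and 7.74 (48 h), and 5.45 and 9.32 (96 h). It was thus high at 12 h and 24 h and low at 48 h and 96 h, and neither set of libraries overlapped those of 0 h and 0.5 h. The log2 change from 0 h was 1.14 ± 0.22 for 12 h (edgeR adjusted p = 7.5e-04), 1.30 ± 0.22 for 24 h (1.5e-04), −0.81 ± 0.27 for 48 h (0.040) and −1.56 ± 0.35 for 96 h (0.0016). Directly between 24 h and 48 h it fell by 2.11 (SE 0.25) on the log2 scale (edgeR adjusted p = 7.6e-06). The 48 h call against 0 h was lost without 48 h replicate 2 (0.376, log2 change −0.44), 0 h replicate 1 (0.0624) or 0 h replicate 2 (0.169), while the 12 h, 24 h and 96 h calls held without any one library. With stricter limits on cells (at least 3000 genes and at most 20% mitochondrial counts, 6 to 58 cells per library) the 12 h change was 0.03 (edgeR adjusted p = 0.99), the 24 h change turned to −0.72 (0.81) and the fall from 24 h to 48 h did not pass (0.64), while the 96 h fall did.

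ITGA6, the alpha partner of ITGB4, measured 80.8 and 75.9 CPM (0 h), 68.5 and 89.9 (0.5 h), 64.2 and 65.1 (12 h), 61.2 and 61.1 (24 h), 51.2 and 49.5 (48 h), and 62.2 and 59.9 (96 h). The libraries from 12 h on all lay below those of 0 h and 0.5 h, though only 48 h passed, with a log2 change of −0.64 ± 0.17 (edgeR adjusted p = 0.011). That call was lost without 0 h replicate 1 (0.0737) or 48 h replicate 2 (0.0587), and with stricter limits on cells the change was −0.21 (0.85). The change at 96 h was −0.36 ± 0.18 (edgeR adjusted p = 0.16).

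ITGA3, the alpha chain of another laminin receptor, measured 133 and 149 CPM (0 h), 165 and 173 (0.5 h), 199 and 174 (12 h), 220 and 151 (24 h), 169 and 142 (48 h), and 250 and 213 (96 h). It passed only at 96 h, with a log2 change from 0 h of 0.71 ± 0.17 (edgeR adjusted p = 0.0036). The libraries of 0.5 h, 12 h, 24 h and 96 h all exceeded both 0 h libraries, and those of 48 h overlapped them. Without 0 h replicate 1 or 96 h replicate 1 the edgeR adjusted p was 0.0573 and 0.0799. At 48 h the change was 0.14 ± 0.17 (edgeR adjusted p = 0.63).

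ITGA2, the alpha chain of a collagen receptor, rose, stood near its 0 h level at 48 h and was higher again at 96 h. It measured 24.6 and 30.7 CPM (0 h), 21.6 and 25.7 (0.5 h), 88.9 and 108 (12 h), 101 and 109 (24 h), 39.1 and 29.9 (48 h), and 58.3 and 66.6 (96 h). Its 48 h libraries overlapped those of 0 h, and its 96 h libraries lay between those of 48 h and 12 h. The log2 change from 0 h was 1.83 ± 0.19 for 12 h (edgeR adjusted p = 1.3e-07), 1.92 ± 0.19 for 24 h (6.6e-08), 0.34 ± 0.21 for 48 h (0.29) and 1.18 ± 0.21 for 96 h (1.5e-04). With stricter limits on cells the 12 h change was 1.20 and the 96 h change 1.02, and neither passed (edgeR adjusted p = 0.15 and 0.16).

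Neighboring times were compared next. From 12 h to 24 h 0 members rose or fell, beside 0% of tested genes higher and 0% lower, and 0 members reached an unadjusted p under 0.05 in edgeR. DESeq2 called 0 members. From 24 h to 48 h 1 member rose (2.61% of tested genes), ITGB3, by 2.48 ± 0.63 on the log2 scale (edgeR adjusted p = 0.020). This call rests on 4 and 3 UMIs at 24 h and 22 and 7 at 48 h. ITGB3 passed the filter on low counts through libraries where it is high, so the p-value is no independent support. The call was lost without either 24 h library (log2 change 2.32 without replicate 1 and 2.56 without replicate 2) or without 48 h replicate 1 (1.81). It was also lost with cells thinned to equal depth (edgeR adjusted p = 0.11), with library sums thinned (0.42) and against a 1.5-fold null (0.099). With only the libraries of the 2 times (0.052) and with DESeq2 (Wald test adjusted p = 0.058) it was lost too. Over the same step 2 members fell (2.63%), ITGB4 as given above and ITGA2, which fell by 1.58 (SE 0.19) on the log2 scale (edgeR adjusted p = 8.8e-06). Both held without any one library, and only the fall of ITGA2 held with stricter limits on cells. From 48 h to 96 h 1 member rose (0.803%), ITGA2, by 0.84 ± 0.21 (edgeR adjusted p = 0.048), and 0 fell (0.411%). That rise missed the threshold in all 12 fits without one library, at 0.0501 to 0.416. In the same step ITGB3 changed by 1.42 ± 0.47 (0.18) and ITGB6 by 1.16 ± 0.44 (0.27).

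Alpha and beta subunits were then compared within libraries, as a description without a test. At 12 h 3 of 5 alpha and 3 of 5 beta subunits had risen, and at 96 h 4 alpha subunits had risen with 0 fallen while 3 beta subunits had risen and 2 had fallen. The median log2 change at 96 h was 1.18 for the 5 alpha and 0.85 for the 5 beta subunits. In the same order it was 1.37 and 1.14 at 12 h and 1.64 and 1.30 at 24 h. At 48 h the order was reversed, with 0.34 for the alpha and 0.62 for the beta subunits. At that time 2 alpha subunits had risen and 1 had fallen, while 3 beta subunits had risen and 2 had fallen. Alpha subunits held 37.8% and 32.5% of the members' UMIs (0 h), 38.3% and 35.4% (0.5 h), 46.4% and 43.9% (12 h), 49.9% and 46.6% (24 h), 40.6% and 40.6% (48 h), and 47.8% and 39.1% (96 h). The share was above both 0 h libraries in both libraries of every time from 12 h on. Summed levels of the 5 alpha subunits were 342 ± 3.39 CPM (0 h), 704 ± 31.9 (24 h) and 665 ± 72.0 (96 h), each with its SD for n = 2. Those of the 5 beta subunits were 637 ± 99.4, 755 ± 34.96 and 867 ± 123 CPM at the same times. ITGB1 made up most of the beta UMIs, and without it the alpha share was 21.0 to 33.2 percentage points higher. Its part in the beta UMIs was 57.6% ± 4.5 at 0 h and 76.4% ± 5.5 at 96 h (SD, n = 2), while ITGB5 fell in level.

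The composition of the alpha UMIs changed as well. ITGA5 made up 5.07% ± 0.91 of them at 0 h and 15.1% ± 0.56 at 96 h, and ITGA6 22.9% ± 0.79 and 9.23% ± 0.75 (SD, n = 2). Between these times the libraries did not overlap for either gene. Ratios of partners within a library are given on the log2 scale. The ITGA5 to ITGB1 ratio was −3.97 and −4.83 (0 h), −2.16 and −2.51 (12 h) and −2.35 and −3.08 (96 h). The ITGAV to ITGB5 ratio was −1.45 and −1.87 (0 h), −0.14 and −0.04 (12 h) and 0.40 and 0.26 (96 h), so that in both libraries ITGAV had fewer UMIs than ITGB5 for 0 h and more for 96 h. The ITGA6 to ITGB4 ratio was 1.995 and 1.64 (0 h), 0.08 and 0.25 (24 h), 1.64 and 2.68 (48 h) and 3.51 and 2.68 (96 h). By mean it was lowest at 24 h and highest at 96 h. The 96 h ratios rest on 7 and 14 UMIs of ITGB4, and replicate 2 was nearly the same at 48 h and 96 h.

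**Figure D3:**
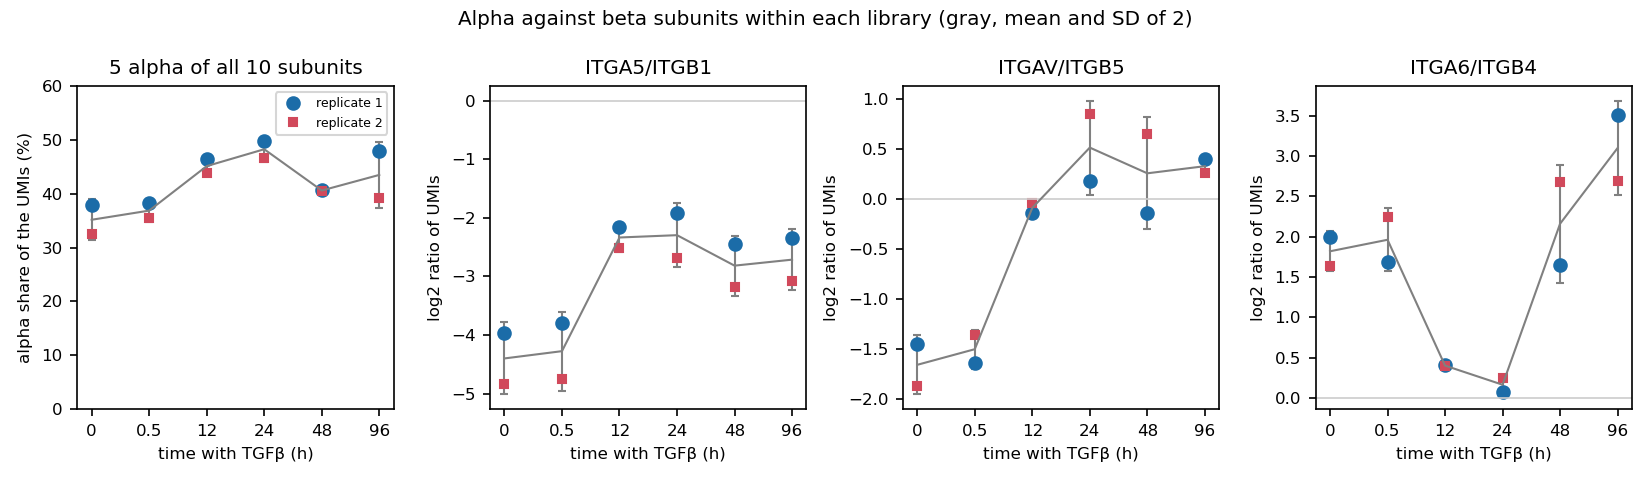
Alpha share of the 10 members' UMIs in percent (left, axis from 0) and log2 ratios of UMIs for 3 alpha and beta pairs (vertical axes, not from 0) by time with TGFβ, replicate 1 as circles, replicate 2 as squares, gray for the mean and SD of 2 libraries. The mean ITGA6 to ITGB4 ratio dips to 0.16 at 24 h and reaches 3.10 at 96 h, where ITGB4 had 7 and 14 UMIs.

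Per cell, the members were read as the share of cells with at least 1 UMI after every cell was thinned to 12506 UMIs, which kept 1684 of the 1871 cells. These shares have no test, since cells of one library are not replicates and 2 libraries against 2 allow no permutation p under 0.333. ITGB1 was found in 93.0% to 100% of cells in every library. ITGA5 was found in 19.4% and 14.6% of cells at 0 h and in 69.1% and 54.2% at 12 h, and without thinning in 29.8% and 25.3% and then 79.3% and 68.2%. Its mean was 0.217 and 0.159 UMIs per thinned cell at 0 h and 1.30 and 1.03 at 12 h, and a cell without a UMI may still express the gene.

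ITGA2 was found in 24.6% and 27.4% of thinned cells (0 h), 56.1% and 59.2% (24 h), 30.2% and 28.0% (48 h) and 39.2% and 44.4% (96 h). ITGB4 was found in 15.4% and 22.3% (0 h), 40.2% and 27.5% (24 h) and 5.88% and 4.76% (96 h). Both shares thus peaked at 12 h or 24 h, as the levels did. ITGB3 was in 0% of cells in both libraries (0 h) and 0.5 h, in at most 2.08% (12 h) and 24 h and in 11.8% and 19.0% (96 h). ITGB6 was in 0% and 0.637% (0 h), 6.74% and 10.4% (12 h) and 15.7% and 14.3% (96 h), so that most cells had no UMI of either gene at any time. The leukocyte subunit ITGB2, which epithelial cells should lack, had a UMI in 1 of the 1684 cells (0.0594%). Without thinning, ITGB3 reached 25.9% and 31.2% of cells and ITGB6 29.6% and 17.2% at 96 h.

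ITGA5 and ITGB1 were found together in 18.9% and 14.6% of thinned cells (0 h), 66.9% and 54.2% (12 h) and 66.7% and 57.1% (96 h), close to the shares with ITGA5, since ITGB1 was in nearly every cell. At least one alpha and one beta subunit had a UMI in 93.8% to 100% of cells of each library. A cell held a UMI of 4.39 and 4.38 of the 10 members on average (0 h), 5.76 and 5.59 (12 h) and 5.55 and 5.38 (96 h).

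**Figure D4:**
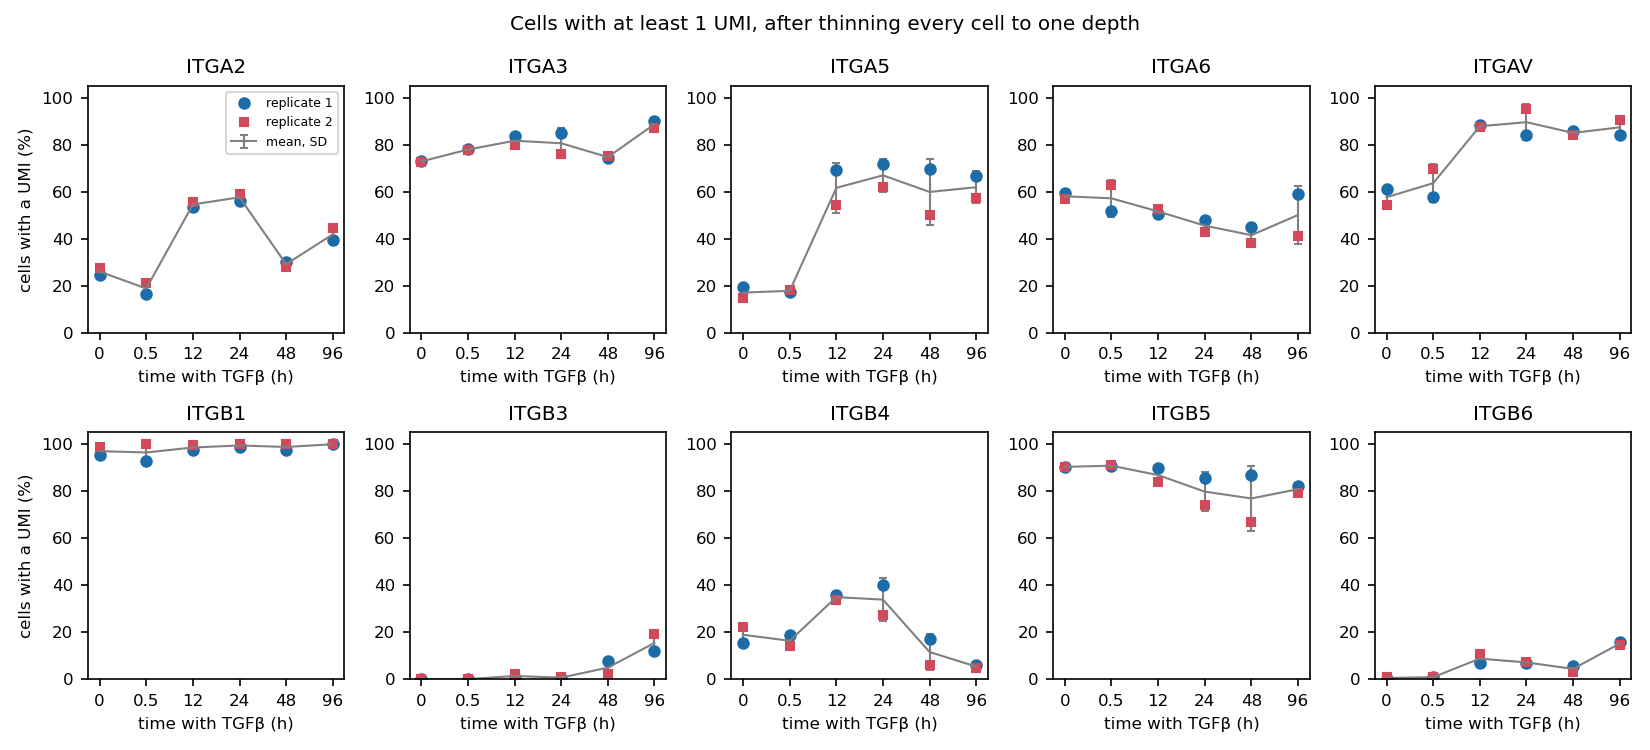
Share of cells with at least 1 UMI in percent (vertical axes, 0 to 100) for the 10 members after thinning to 12506 UMIs, by time with TGFβ, replicate 1 as circles, replicate 2 as squares, gray for the mean and SD of 2 libraries. ITGB1 stays at or above 93.0%, ITGA5 moves from 17.0% at 0 h to 61.6% at 12 h on average, and ITGB3 and ITGB6 stay under 20%.

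Of 16 other integrin subunits listed, 15 were in the table and 3 reached 5 CPM in a library and were tested, of which 2 had risen and 0 had fallen at 12 h and at 96 h, while the other 12 stayed at or under 2.80 CPM. ITGA1, a collagen receptor chain, rose from 2.46 and 3.47 CPM at 0 h to 13.5 and 10.8 (12 h), 21.7 and 25.3 (48 h) and 52.9 and 45.9 (96 h), with a log2 change of 2.02 ± 0.37 at 12 h (edgeR adjusted p = 3.2e-04) and 4.04 ± 0.34 at 96 h (2.7e-09). ITGA11, another collagen receptor chain, had 1 and 2 UMIs at 0 h and 20 and 27 at 96 h. The ratio of UMI shares was 40.7 (exact 95% interval 13.1 to 204, counting error only), with an edgeR adjusted p of 8.6e-07. ITGA11 also passed the filter on low counts through later libraries, where it is high. Unlike ITGA2, ITGA1 did not drop between 24 h and 48 h but rose by 1.40 ± 0.30 on the log2 scale (edgeR adjusted p = 0.0049). ITGAE, the partner of ITGB7, stayed at 63.4 to 110 CPM and passed at no time (edgeR adjusted p 0.27 to 1 against 0 h).

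Proteins that bind integrin tails or form focal adhesions were mostly higher where they changed. Of 22 tested on this list, 8 had risen and 0 had fallen at 12 h, and 11 had risen and 3 had fallen at 96 h, with a median log2 change of 0.55 and 0.75. The background is that of all tested genes given above. TNS4, a tensin, rose by 3.46 ± 0.28 at 12 h (edgeR adjusted p = 7.4e-09), from 7.01 ± 1.32 to 77.6 ± 19.5 CPM (SD, n = 2). TNS1, a second tensin, had 3 UMIs at 0 h, 197 at 12 h and 104 by 96 h. The ratios of UMI shares were 61.8 (exact 95% interval 20.8 to 302) and 90.0 (29.97 to 444), with edgeR adjusted p of 7.9e-07 and 1.6e-07. TNS1 passed the filter on low counts through libraries where it is high, not those of 0 h. VCL, the adhesion protein vinculin, rose by 1.36 ± 0.16 at 96 h (edgeR adjusted p = 7.6e-07).

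Among ligands, 10 of 13 genes were tested on a list of RGD ligands, matricellular proteins and genes of latent TGFβ. Of these 5 had risen and 1 had fallen at 12 h, and 7 had risen and 1 had fallen at 96 h (median log2 change 0.80 and 1.44). CCN2, a matricellular protein, rose by 2.30 ± 0.16 at 12 h (edgeR adjusted p = 2.1e-10) and by 2.29 ± 0.17 at 96 h (2.1e-10). THBS1, thrombospondin 1, rose by 2.10 ± 0.17 and 3.76 ± 0.18 at these times (2.3e-09 and 7.0e-14 by edgeR). Of the collagen chains, 8 were tested and 5 had risen at both times, with 1 fallen at 12 h and 0 at 96 h (median 1.93 and 2.92). COL4A1, a basement membrane chain, rose by 3.92 ± 0.21 at 12 h (edgeR adjusted p = 2.4e-12) and by 4.51 ± 0.22 at 96 h (9.9e-14). COL4A2, its partner chain, rose by 2.77 ± 0.22 at 12 h (1.1e-08), and COL5A1, a fibrillar chain, by 5.83 ± 0.33 at 96 h (7.6e-11).

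Of the laminin chains, the ligands of ITGA3 and of ITGA6 with ITGB4, 7 were tested. Of these 2 had risen and 1 had fallen at 12 h, and 1 had risen and 2 had fallen at 96 h (median log2 change 0.28 and 0.11). LAMB3, a beta chain, rose by 1.70 ± 0.31 at 12 h (edgeR adjusted p = 3.5e-04), while LAMA5, an alpha chain, fell by 1.03 (SE 0.19) at 96 h (2.2e-04).

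Hemidesmosome partners of ITGB4 did not pass in its direction at 96 h. Of 3 tested, 2 had risen at both 12 h and 96 h and 0 had fallen (median log2 change 0.70 and 0.75). From 24 h to 48 h, the step in which ITGB4 fell, 1 of the 3 fell and 0 rose (median −0.30). CD151, a tetraspanin bound to laminin receptors, rose by 1.14 ± 0.16 at 12 h and 1.03 ± 0.16 at 96 h (edgeR adjusted p = 1.5e-05 and 3.8e-05), and PLEC, plectin, by 0.70 ± 0.16 and 0.75 ± 0.16 (0.0028 and 0.0014). Of 12 other membrane partners tested, 2 had risen and 2 had fallen at 12 h and 4 had risen and 2 had fallen at 96 h (median −0.03 and 0.07). SDC4, a syndecan of focal adhesions, rose by 1.53 ± 0.16 at 12 h (edgeR adjusted p = 1.8e-07). PLAUR, the urokinase receptor, rose by 1.49 ± 0.20 at 12 h and 2.0 ± 0.20 at 96 h (5.0e-06 and 5.1e-08), and SDC1, another syndecan, by 1.38 ± 0.17 (96 h) (1.5e-06).

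ITGB3 had the highest and ITGB4 the lowest fitted change at 96 h, and the genes most like each were sought among 5546 others with a mean of at least 20 CPM by Pearson's r of log2(CPM + 1) over the 12 libraries, which share their time points and barcode sets. For ITGB3 these were GALNT18 (r = 0.986), RAB3B (0.978) and ABHD2 (0.970). For ITGB4 they were GFPT2 (r = 0.957), SLC1A5 (0.951) and HACD2 (0.947). They are given as a description of similar profiles only.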

How the data were processed

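Sequenced cells were A549 cells with TGFβ for 6 times, 2 CEL-Seq2 libraries each. The authors deposited counts of UMIs per gene and well, whole numbers that are not normalized, and the submitters' processing notes name featureCounts 2.0.1, UMI-tools, HISAT2 2.2.1, Trim Galore 0.6.7 and the build GRCh38. The study's methods give other versions of Trim Galore and featureCounts for these cells. UMI-tools collapses duplicate molecules. For annotation release and strand, no setting is given in the sources used here. Wells were sorted with 1 cell each, and doublets were not called. The limits on wells are those in the study's methods, which give another total of cells than the 1871 of 4608 wells these limits left here.

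The UMIs of each library's kept cells were added up for 15871 protein-coding genes. They were tested with edgeR 4.0.16 in R 4.3.3, using filterByExpr, TMM scaling and the robust quasi-likelihood test. The model had 1 mean per time, leaving 6 residual degrees of freedom and a common biological coefficient of variation of 0.129. Benjamini-Hochberg adjustment was over all 10465 tested genes of a comparison, and 8 comparisons and 1 test over all times were made. Sums ranged from 1264044 to 4500036 UMIs, so 1 UMI is under 1 CPM in the smallest library. On simulated data (12 h vs 0 h, 9908 genes) 95.5% of genes changed 4-fold, 67.2% changed 2-fold and 17.9% changed 1.5-fold were recovered, with 3 false calls. The changed genes were drawn above a minimum level at 0 h, which ITGB3 and ITGB6 did not reach. These rates do not cover those 2 genes or the other comparisons. The SE was obtained from the change and the root of its F. For a group at 0 counts the floor was 3 counts in all, and 1 to 3 counts give a ratio with an exact 95% interval (scipy 1.17.1). Alternatives were DESeq2 1.42.0, other scaling, filters, cells, depths and genes, a 1.5-fold null, a replicate block and each library left out. Figures used matplotlib 3.10.9.

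Members, gene lists and tests were chosen with earlier results of these data known. Named genes are the members, other subunits reaching 5 CPM, up to 2 genes per list with the lowest adjusted p at 12 h and at 96 h, and 3 genes most like each of 2 members. Fibroblast, endothelial, immune and epithelial markers were followed by their sums. Of the table's columns of per-sample values, 0 were left unused. Not every gene that this rule picks is reported here.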

Additional observations from a re-analysis of the deposited data

Results flagged for a closer look

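Wells with under 1000 detected genes (2187 in all, with a median of 496 to 1312 UMIs per library) entered no comparison above. In these wells 7 of the 10 members stood higher in both 96 h libraries than in both 0 h libraries, beside 20.8% of the 8879 protein-coding genes with more than 3 UMIs in these 4 libraries. These wells are data outside the comparisons, and the libraries are the ones already compared, so this is no independent support. The mean level at 96 h was 125 CPM for ITGA5, 52.0 CPM for ITGA2, 181 CPM for ITGA3, 269 CPM for ITGAV, 376 CPM for ITGB1, 36.9 CPM for ITGB3 and 12.7 CPM for ITGB6, beside 17.8, 25.8, 118, 189, 273, 0 and 2.70 CPM at 0 h in the same order. ITGB3 and ITGB6 rest on 10 and 5 UMIs and on 3 and 2 UMIs in the 96 h libraries. Levels of these wells are CPM without TMM scaling. The difference was not tested, and the part of RNA from other cells in these wells was not tested.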

How the results depend on the processing

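Of 33 calls of a member in a comparison, 22 held without any one library and 11 held under every alternative run. All 33 held with DESeq2 size factors and with no filter on low counts. With stricter limits (at least 3000 genes and at most 20% mitochondrial counts, 206 cells, 6 to 58 per library) 25 calls had a value and 14 held; ITGB3 and ITGB6 did not pass the filter there. Under these limits the count of members changed was 3 in place of 6 at 12 h. These 3 were ITGA5, ITGAV and ITGB1, and ITGB1 was not among the 6. The count was 2 in place of 8 (48 h), 5 in place of 9 (96 h) and 1 in place of 3 from 24 h to 48 h. It was 0 in place of 1 from 48 h to 96 h and 6 in place of 10 over all times. The change of ITGB4 for 24 h turned to −0.72 on the log2 scale. Fewer cells and fewer genes tested are part of that setting.

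For 48 h against 0 h the count of 8 became 5 with cells thinned to equal depth, 5 with each library's sum thinned to the lowest total, and 4 when tested for over 1.5-fold. For 96 h against 48 h the single call of ITGA2 became 0 with both kinds of thinning, with all genes of the table, with only the libraries of the 2 times, against a 1.5-fold null and with DESeq2; the cause was not tested. Without single libraries the counts ran from 5 to 6 (12 h), 5 to 7 (24 h), 4 to 8 (48 h), 6 to 9 (96 h), 2 to 3 from 24 h to 48 h, 0 to 0 from 48 h to 96 h and 7 to 10 over all times. The count of 4 at 48 h came without 0 h replicate 1 and without 48 h replicate 2.

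With the replicate number as a block, all 33 calls held and 4 were added, among them ITGB1 at 12 h and 24 h, so 96 h against 48 h had 2 members in place of 1. Deviations of libraries with one number correlated at 0.14 to 0.275 in the 6 pairs without 0.5 h or 96 h, and at −0.0926 to 0.0870 in the 9 pairs with either. Since not every pair was over 0.1, the number, which is also the barcode set, was not taken to pair the samples over the whole course, and a shared batch among the other times was not tested. The percent of cells with a UMI moved with thinning depth in 54 of 60 values at 6253 UMIs, by −28.3 to 0 points. Depth limits ITGB3 and ITGB6, at 0 or 1 UMI in each library at 0 h.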

Other observations

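ITGB1-DT, a long non-coding RNA gene that starts beside ITGB1 on the opposite strand (chr10:32958437-33082409, + strand, GRCh38), was outside the protein-coding comparisons and was picked after its values were seen. It had 71 and 59 UMIs (0 h), 55 and 46 (0.5 h), 23 and 31 (12 h), 29 and 17 (24 h), 21 and 17 (48 h), and 8 and 7 (96 h). In CPM over all genes it stood at 16.8 and 15.7 at 0 h and at 5.68 and 4.13 at 96 h. In the fit over all genes of the table it fell by 1.37 (SE 0.29) on the log2 scale at 12 h and fell by 1.78 (SE 0.37) at 96 h (edgeR quasi-likelihood, Benjamini-Hochberg adjusted p = 0.0020 and 0.0012), while ITGB1 rose at 96 h. The genes overlap on opposite strands, and no source used here states whether counting used strand.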
